A study of Mus musculus with 6 samples.

Results

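T cell co-signalling ligands are the surface and secreted proteins, together with one tryptophan-degrading enzyme, by which a cell raises or restrains the response of a T cell that has met its antigen. The group examined here holds 8 genes chosen by name, Cd274, Pdcd1lg2, Cd80, Cd86, Icosl, Cd276, Lgals9 and Ido1, out of 34745 genes in the deposited table, and all 8 have a row there. RNA was sequenced from primary renal fibroblasts of wild-type (WT) mice, cultured alone (3 libraries) or for 24 h beneath a 0.4 μm porous insert holding Th17 cells (3 libraries). The Th17 cells had been induced from splenic CD4+ T cells on plates coated with antibodies against CD3 and CD28. The medium for induction held interleukins and an antibody against interferon-γ. Whether antibody or cytokine was carried into the shared medium was not stated. Only the fibroblasts below the insert were harvested. The sources do not say whether libraries of one group came from separate animals, cultures or wells, so errors and p-values describe the spread between these libraries, which may be technical.

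T cells read these ligands as a second signal beside the antigen receptor. CD80 and CD86 engage CD28 to activate and CTLA-4 to restrain, ICOS ligand engages ICOS, and PD-L1 and PD-L2, encoded by Cd274 and Pdcd1lg2, engage the inhibitory receptor PD-1. B7-H3, encoded by Cd276, belongs to the same B7 family, galectin-9 is a sugar-binding protein for which TIM-3 is a described receptor, and IDO1 converts tryptophan towards kynurenine and so starves T cells of an amino acid. Interferons are well-known inducers of PD-L1, galectin-9 and IDO1 in stromal cells, whereas CD80 and CD86 are mainly products of dendritic cells, macrophages and B cells.

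Each library held 12050529 to 13209581 counts in all, and 3 counts, taken as the floor, corresponded to between 0.223 and 0.254 CPM, the counts scaled to a common library total, after TMM scaling. The floor covers counting error only, and the 95% intervals below come from the fit and include the spread between libraries. Pairs of libraries within a group differed by a chi-square of 6.38 to 8.50 per gene, except that cocultured replicate 3 gave 14.0 and 15.2 against its partners. The log2 fold changes without that library were −2.50 for Cd274, −1.36 for Lgals9, −0.77 for Cd276, 0.45 for Cd80 and −0.37 for Icosl. Xist (2215 to 3149 counts) and 4 Y-linked genes (214 to 969 counts) were present in all 6 libraries.

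The comparison asked how the ligand transcripts of fibroblasts differ when Th17 cells share their medium. Cd274, Lgals9 and Cd276 fell with Th17 cells, to 17.5%, 38.6% and 55.3% of the level in lone fibroblasts. Cd80 rose to 140%, close to the limit of the test. Icosl did not pass the test, and Ido1, Cd86 and Pdcd1lg2 had too few counts to be tested. Of the 5 members that passed the filter on low counts, 4 thus had an adjusted p below 0.05 by edgeR's quasi-likelihood test, 3 lower and 1 higher, where 37.1% of all 13088 genes tested passed (20.0% lower and 17.1% higher). With a fold change above 2 required in addition, Cd274 and Lgals9 remained, both lower, where 11.6% of all genes passed (7.78% lower and 3.87% higher). CPM was fully separated between the groups in 4 of the 5 members and in 50.4% of all genes tested. In bulk RNA, fewer cells of a type and less RNA per cell cannot be told apart.

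Levels of different genes were compared as FPKM, the deposited value that divides fragments by gene length and library total. In lone fibroblasts Lgals9 was highest at 108 ± 6.06 FPKM, above 97.4% of the genes tested, and was followed by Cd274 at 26.3 ± 1.42, Cd276 at 14.1 ± 0.316, Cd80 at 2.42 ± 0.275 and Icosl at 1.05 ± 0.254 FPKM (SD, n = 3 each). The ranges of neighbours in this order did not overlap among these 5 genes. With Th17 cells the order changed at a single place, as Cd276 at 8.12 ± 0.768 FPKM now stood above Cd274 at 4.82 ± 0.0682 FPKM, again with no overlap. Lgals9 remained first at 43.4 ± 0.790 FPKM and Cd80, at 3.54 ± 0.277 FPKM (SD, n = 3 each), was still next below Cd274.

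**Figure D1:**
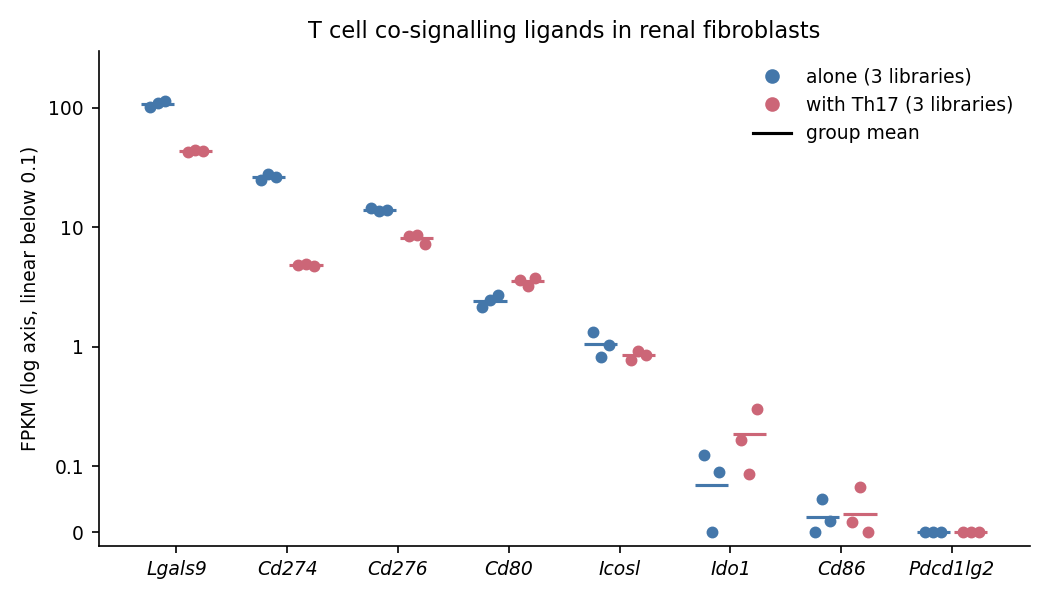
FPKM (vertical axis, logarithmic above 0.1 and linear below) of each of the 8 ligand genes in every library, with fibroblasts cultured alone in blue, fibroblasts with Th17 cells in red and a bar at the group mean. The blue and red points of Lgals9, Cd274, Cd276 and Cd80 are apart, those of Icosl overlap, and Ido1, Cd86 and Pdcd1lg2 lie at or near 0.

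Cd274 (ENSMUSG00000016496, chromosome 19, 29367455 to 29388095, plus strand, build mm10, protein-coding) showed the largest difference of the group. PD-L1, its product, is the ligand by which non-immune cells most commonly engage PD-1. Counts were 1189, 1298 and 1157 in lone fibroblasts and 230, 222 and 220 with Th17 cells, so every lone library was above every cocultured one. Mean CPM was 97.5 ± 5.14 alone and 17.1 ± 0.351 with Th17 cells (SD, n = 3 each), a 5.70-fold decrease. On the log2 scale the difference was −2.51 (SE 0.0777, 95% interval −2.69 to −2.34, edgeR adjusted p = 4.56e-08). Of all genes tested, 1.92% had a lower log2 fold change. An antisense gene, AC119228.1, shares exonic sequence with Cd274 on the other strand in the GENCODE annotation. It has no row under that name in the deposited table and could not be examined. Whether the counting kept to a single strand is unknown.

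Lgals9 (ENSMUSG00000001123, chromosome 11, 78962974 to 78984946, minus strand), the gene of galectin-9, was the most abundant ligand transcript and also fell. Its counts were 4361, 4621 and 4445 alone and 1842, 1815 and 1797 with Th17 cells, with no overlap. Mean CPM was 360 ± 19.2 and 139 ± 3.32 (SD, n = 3 each), a log2 difference of −1.37 (SE 0.0625, 95% interval −1.52 to −1.23, edgeR adjusted p = 3.60e-07). The interval for Cd274 lay wholly below that for Lgals9.

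Because interferon response elements are described in promoters of this kind, the letters around the RefSeq starts (GRCm38.p6) were searched for known motifs. The promoters of Cd274 and Lgals9 are shown because both hold a match to the core of the interferon-stimulated response element and both transcripts fell. That of Cd80 is shown beside them as a window without a match. Cd276, which also fell, Icosl, which did not pass, and Pdcd1lg2, which was not tested, likewise had no match. The windows shown were picked with the direction known, and a link between match and direction was not tested. Unlike in the other windows, the bases near the end of the Cd276 window were not found in its annotated transcripts. That window may thus not belong to the transcripts counted. Each run is the 150 bases before the start, 5′ to 3′ on the strand of the gene, and capitals mark the match, which on this strand reads as the reverse complement of GAAANNGAA.
Cd274, chr19:29367288-29367437, plus strand: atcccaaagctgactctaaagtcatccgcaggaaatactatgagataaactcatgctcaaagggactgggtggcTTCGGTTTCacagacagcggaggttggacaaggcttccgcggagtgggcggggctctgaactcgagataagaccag
Lgals9, chr11:78984925-78985074, minus strand: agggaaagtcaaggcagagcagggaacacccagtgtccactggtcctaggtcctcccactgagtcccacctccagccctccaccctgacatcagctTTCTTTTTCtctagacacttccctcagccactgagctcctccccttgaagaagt
Cd80, chr16:38458783-38458932, plus strand: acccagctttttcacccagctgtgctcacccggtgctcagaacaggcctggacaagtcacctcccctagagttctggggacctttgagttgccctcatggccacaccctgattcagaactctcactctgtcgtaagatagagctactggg

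The match lay 76 to 68 bases before the start of Cd274 and 54 to 46 bases before that of Lgals9, and Lgals9 had a further match 17 to 25 bases after its start. Promoter windows of 300 bases, 250 before and 50 after the start, were listed for 6 of the 8 members and not for Cd86 or Ido1. Of these 6, Cd274 and Lgals9 held the ISRE core on either strand, as did 8.56% of all 32851 promoter windows. The GAS letters, TTCNNNGAA, occurred in none of the 6 and in 8.30% of all windows, and the kappaB motif occurred in Pdcd1lg2 and Icosl and in 8.46% of all windows. The 3 motifs were counted separately, and a match describes letters and not a bound site.

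Cd276 (ENSMUSG00000035914, chromosome 9, 58524300 to 58555132, minus strand), the gene of B7-H3, was lower by a smaller margin. It had 1071, 1005 and 948 counts alone and 627, 611 and 521 counts with Th17 cells, with no overlap. Mean CPM was 80.9 ± 1.97 and 44.7 ± 4.48 (SD, n = 3 each), a log2 difference of −0.85 (SE 0.0862, 95% interval −1.05 to −0.66, edgeR adjusted p = 6.40e-05), which is a fold change of less than 2. Gm10657, which overlaps its exons on the opposite strand, had between 0 and 10 counts.

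Cd80 (ENSMUSG00000075122, chromosome 16, 38458933 to 38486933, plus strand) was the member with a higher level under coculture. CD80 also binds PD-L1 on the same cell, besides CD28 and CTLA-4 on T cells. Its counts were 48, 54 and 55 alone and 81, 69 and 82 with Th17 cells, without overlap but at a low level. Mean CPM was 4.21 ± 0.465 and 5.89 ± 0.424 (SD, n = 3 each), a 1.40-fold rise and a log2 difference of 0.49 (SE 0.167, 95% interval 0.11 to 0.86, edgeR adjusted p = 0.0473). The call was lost whichever 1 of the 6 libraries was left out, at an edgeR adjusted p between 0.0593 and 0.145. The log2 fold change in those fits stayed between 0.40 and 0.56. DESeq2 gave an adjusted p of 0.148. The ratio of Cd274 to Cd80 in FPKM, taken within each library after the values were seen and given as a description, was 11.6, 11.3 and 9.88 alone and 1.33, 1.51 and 1.26 with Th17 cells.

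Icosl (ENSMUSG00000000732, chromosome 10, 78069360 to 78079525, plus strand), the gene of ICOS ligand, did not pass the test. Its counts were 48, 29 and 34 alone and 28, 32 and 30 with Th17 cells, so the groups overlapped. The difference in log2 CPM was −0.37 (SE 0.247, 95% interval −0.93 to 0.19, edgeR adjusted p = 0.274), which leaves room for a level from 52.5% to 114% of that in lone fibroblasts.

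**Figure D2:**
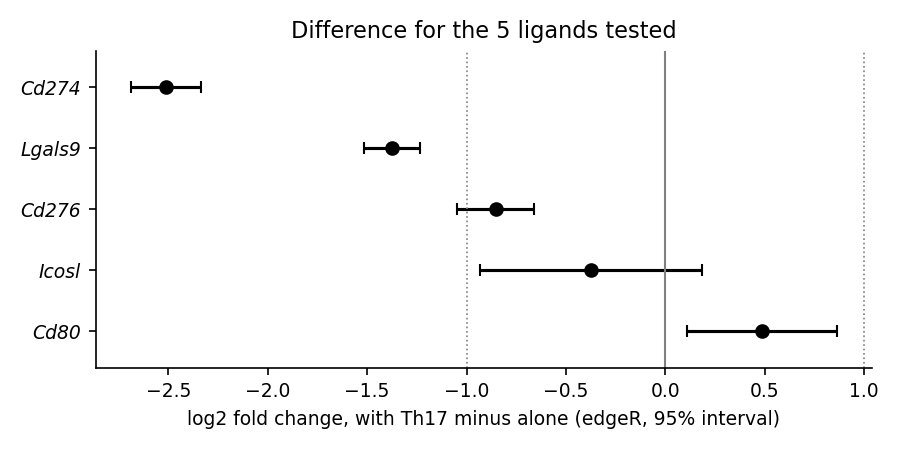
Log2 fold change of the 5 ligand genes tested (horizontal axis, with Th17 cells minus alone), with 95% intervals from the edgeR fit over 3 libraries per group and dotted lines at a fold change of 2. The intervals of Cd274 and Lgals9 lie wholly beyond the dotted line, that of Cd276 reaches it, that of Icosl spans 0, and that of Cd80 lies just above 0.

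The remaining 3 ligands were at or near the floor in both groups. Ido1 (ENSMUSG00000031551, chromosome 8, 24584136 to 24597009) had 3, 0 and 2 counts alone and 4, 2 and 7 with Th17 cells, and without a filter on low counts the log2 difference was 1.24 (SE 0.975, edgeR adjusted p = 0.415). Cd86 (ENSMUSG00000022901, chromosome 16, 36603869 to 36666081) had 0, 3 and 1 counts alone and 1, 4 and 0 with Th17 cells. Pdcd1lg2, encoding PD-L2 (ENSMUSG00000016498, chromosome 19, 29410919 to 29471157), had 0 counts in all 6 libraries, which allows a level of up to between 0.223 and 0.254 CPM in a library. A difference in these genes was not detectable at this depth.

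Cd274 and Pdcd1lg2 are neighbours on chromosome 19, where Jak2, the gene of a kinase that carries the interferon-γ signal, also lies. The 10 genes of the table within 250 kb of Cd274 were therefore examined, a choice made after the values were seen. Jak2, which starts 116 kb before Cd274, had 2200, 2209 and 2052 counts alone and 2239, 1952 and 2102 with Th17 cells (log2 fold −0.11 with SE 0.0586, edgeR adjusted p = 0.166). Plgrkt, whose annotated end lies 0.065 kb before the start of Cd274 and which is transcribed the other way, was lower at −0.55 (SE 0.124, edgeR adjusted p = 0.00744), and Insl6 was higher at 1.05 (SE 0.269, edgeR adjusted p = 0.0135). Ermp1 was lower at −0.34 (edgeR adjusted p = 0.0340), and Ric1 and Rcl1 did not pass. The intervals of these 6 neighbours lay above that of Cd274.

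**Figure D3:**
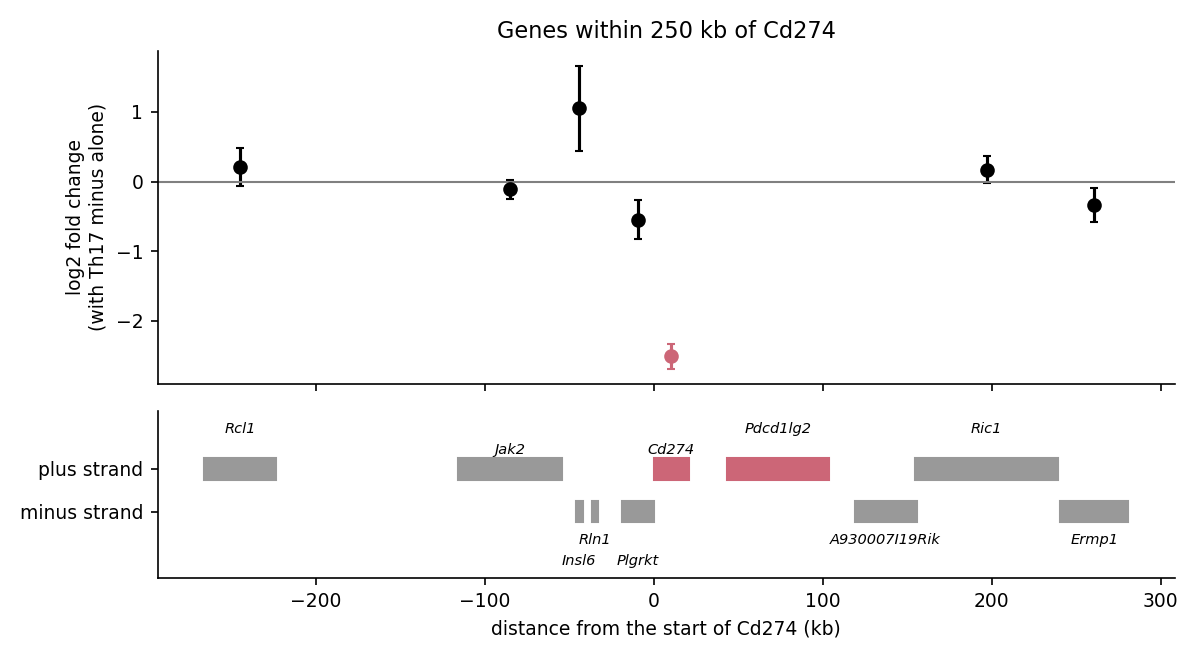
Upper panel, log2 fold change (with Th17 cells minus alone, 95% interval from edgeR, 3 libraries per group) of each gene tested within 250 kb of Cd274, at the middle of the gene. Lower panel, the genes drawn to scale by strand against the distance in kb from the start of Cd274, with the PD-1 ligand genes in red. Cd274 lies at −2.51 and the other genes between −0.55 and 1.05, and Pdcd1lg2, Rln1 and A930007I19Rik were not tested.

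Transcripts whose profile over the 6 libraries lay closest to each ligand were found among 10556 genes by Euclidean distance between log2 CPM values centred on the lone libraries. The closest to Cd274 were Gbp2, Mx2 and H2-T24, with log2 fold changes of −2.57, −2.49 and −2.42 and distances from 0.217 to 0.253. Gbp2 and Mx2 are known interferon-induced genes. The closest to Lgals9 were Xaf1, Sepw1 and Tapbp, to Cd276 Emilin2, Serpinb6b and Loxl2, to Cd80 Ubxn2a, Foxo1 and Tnfrsf9, and to Icosl Fancc, Acacb and Alg6. These distances mainly reflect the size of the group difference and are given as a description.

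The genes around these ligands were examined in 9 lists of 109 genes, of which 65 were tested, with 14 higher and 29 lower, where 17.1% of all genes tested were higher and 20.0% lower. Beyond the 8 ligands, the B7 and butyrophilin family was sparse, as 3 of 9 genes were tested and 2 of the 9 had 0 counts throughout. Ildr2, a B7-like gene, fell from 201, 175 and 140 counts to 26, 19 and 20 (log2 fold −3.05 with SE 0.187, edgeR adjusted p = 2.39e-06), and Vsir, the gene of VISTA, was lower at −0.56 (edgeR adjusted p = 0.0123). Igsf11, encoding a ligand of VISTA, rose from 3, 2 and 0 counts to 34, 33 and 22 (edgeR adjusted p = 0.000448). Vtcn1, the gene of B7-H4, had 5, 7 and 4 counts alone and 0 in each cocultured library and was not tested. The list median was −0.56, against 0.00 over all genes tested.

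Among co-signalling ligands of the TNF, nectin and adhesion families, 9 of 16 were tested, with 6 lower and 1 higher (median −0.58). The shares over all genes tested were 20.0% lower and 17.1% higher. Icam1, the adhesion ligand of LFA-1 on T cells, fell from 363, 313 and 377 to 34, 24 and 23 counts (log2 fold change −3.77, SE 0.173, edgeR adjusted p = 3.77e-07), with every lone library above the cocultured ones. Tnfsf15, a co-stimulatory TNF family ligand, was lower at −1.79 and Cd200, an inhibitory ligand, at −1.13 (edgeR adjusted p = 4.94e-07 and 7.23e-07). Tnfrsf14, Nectin2 and Pvr were lower by −0.77, −0.58 and −0.28. Pvr and Nectin2, shared ligands of activating CD226 and inhibitory TIGIT, were abundant at 68.3 and 70.9 FPKM alone and 58.8 and 49.6 FPKM with Th17 cells. Cd40 was higher at 0.45 (edgeR adjusted p = 0.0288), a call lost with each of 5 libraries left out, at adjusted p from 0.0541 to 0.0960, and of those 6 fits the one without cocultured replicate 1 retained it. Tnfsf9, the 4-1BB ligand, had 150, 149 and 134 counts alone and 149, 169 and 122 with Th17 cells (edgeR adjusted p = 0.833). Cd70 and Tnfsf14 were at 0 counts.

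The receptors through which T cells read these ligands mostly had few counts. Of 14 genes, 3 were tested, with 2 higher and none lower, where 17.1% of all genes tested were higher and 20.0% lower. Cd28, the receptor of CD80 and CD86, had 15, 8 and 9 counts alone and 6, 3 and 5 with Th17 cells. By contrast, Cd226, Btla and Cd160 had 0 counts in all libraries, while Pdcd1, the gene of PD-1, had a single count in all. Havcr2, the gene of TIM-3, rose from 204, 263 and 215 to 660, 648 and 749 counts (log2 fold change 1.52, SE 0.115, edgeR adjusted p = 9.49e-06). Tnfrsf9, the gene of 4-1BB, rose from 501, 581 and 561 to 858, 733 and 917 counts (0.53, SE 0.103, edgeR adjusted p = 0.00329). Icos had between 8 and 14 counts and did not pass (edgeR adjusted p = 0.830).

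In a list of interferon-γ signalling and related genes, 13 of 15 were tested, and 6 were lower and 3 higher (median −0.18). Of all genes tested, 20.0% were lower and 17.1% higher. Irf1, a direct activator of Cd274, fell from 533, 542 and 521 to 239, 169 and 172 counts (log2 fold −1.54 with SE 0.126, edgeR adjusted p = 1.60e-05). Also lower were Nlrc5, an activator of MHC class I genes, at −1.73, Stat2 at −1.30, Irf9 at −0.59 and Stat3 at −0.34. Receptor and kinase transcripts did not share this direction, as Ifngr1, Jak1 and Jak2 did not pass and Ifngr2 was higher at 0.99 (edgeR adjusted p = 1.86e-06). Socs3 and Socs1, inhibitors of cytokine signalling, rose by 2.53 and 0.70 (edgeR adjusted p = 3.17e-07 and 0.00663). Ciita, the switch of MHC class II expression, had 0 counts throughout.

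PD-L1 protein is also set by partners that act after transcription. Of 9 such genes, all tested, 2 were lower and 1 higher (median −0.11), a share near the 37.1% of all genes tested. Cmtm6, which keeps PD-L1 at the cell surface, was lower at −0.54 (SE 0.0686, edgeR adjusted p = 0.000293), and its relative Cmtm4 was higher at 0.31 (SE 0.0611, edgeR adjusted p = 0.00340). Stt3a, a subunit of the enzyme that adds N-glycans, was lower at −0.17 (edgeR adjusted p = 0.0435), and this call was lost in 5 of the 6 fits that left out 1 library. Zdhhc3 and Zdhhc9, palmitoyltransferases described for PD-L1, did not pass (0.06 and −0.13, edgeR adjusted p = 0.527 and 0.220).

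In the tryptophan and kynurenine pathway beside Ido1, 9 of 15 genes were tested, and 3 were lower and none higher, again near the share over all genes (median −0.13, with 5 genes at 0 counts). Qprt, an enzyme of late kynurenine use, had 24, 30 and 20 counts alone and 0, 2 and 5 with Th17 cells (edgeR adjusted p = 0.00161). Ahr, a receptor for kynurenine, was lower at −0.65 and the amino acid transporter Slc7a5 at −0.39 (edgeR adjusted p = 0.00253 and 0.00229). Tdo2, the other main enzyme of this first step, and Kmo and Kynu, which act downstream, were at 0 counts, and Ido2 had between 4 and 23 counts (edgeR adjusted p = 0.453). Kyat3 was at 0.55 (edgeR adjusted p = 0.0752) and passed only without lone replicate 1 (0.0466) and with library size as the only scaling (0.0475).

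Galectins did not all follow Lgals9. Of 8 genes 4 were tested, with 2 lower and none higher (median −0.42), beside 20.0% lower and 17.1% higher over all genes tested. Lgals3bp, a galectin-3 binding protein, was lower at −1.45 and Lgals8 at −0.81 (edgeR adjusted p = 1.37e-07 and 0.000175). Lgals1, the most abundant galectin at 1112.5 FPKM alone and 1145 FPKM with Th17 cells, had 11791, 11787 and 10450 counts alone and 9038, 9793 and 16360 with Th17 cells (edgeR adjusted p = 0.937). Its cocultured replicate 3 stood above the other 2, and without that library 4 genes of the list were lower, Lgals1 among them at −0.33 (edgeR adjusted p = 0.00439). These 4 include a gene that was under the filter on low counts in the main fit, and the call of Lgals3 did not change.

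Of 10 genes of peptide presentation, the first signal to a T cell, 7 were tested, with 6 lower and 1 higher (median −0.55). Over all genes tested, 20.0% were lower and 17.1% higher. Tap1 and H2-K1 fell by 2.17 and 1.31 on the log2 scale (edgeR adjusted p = 2.11e-06 and 1.17e-06), and B2m and H2-D1 by 0.55 and 0.51, while H2-DMa, a class II peptide-loading chain, rose by 0.95 (edgeR adjusted p = 0.00462). Of MHC class II, H2-Aa, H2-Eb1 and H2-DMb1 were at 0 counts, whereas H2-Ab1 had 168, 185 and 182 counts alone and 141, 147 and 151 with Th17 cells (−0.36, edgeR adjusted p = 0.0398), a call lost in 4 of the 6 fits without 1 library. In addition, Cd74, the class II chaperone, had 13, 11 and 11 counts alone and 1, 2 and 0 with Th17 cells.

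Other products by which stromal cells restrain T cells moved in both directions, with 5 higher and 2 lower of 8 tested out of 13 (median 0.99). All genes tested gave 17.1% higher and 20.0% lower. Ptgs2 and Ptges, which make prostaglandin E2, rose by 1.70 and 1.57 on the log2 scale (edgeR adjusted p = 7.42e-08 and 7.23e-07), and Ptgs2 reached 81171, 74672 and 85530 counts against 25004, 23552 and 22208 alone. Hmox1, which degrades heme, rose by 1.86 and Arg2, an arginase, by 1.19 (edgeR adjusted p = 4.56e-08 and 0.00343). Nos2, the inducible nitric oxide synthase, fell from 6177, 6667 and 5887 to 1920, 1998 and 1645 counts (−1.82, SE 0.0873, edgeR adjusted p = 4.94e-07), and Tgfb2 was lower at −1.85 (edgeR adjusted p = 9.76e-06). Tgfb1 did not pass (0.05, edgeR adjusted p = 0.596), and Il10 and Ebi3 were at 0 counts. Nt5e was higher at 0.78 (edgeR adjusted p = 0.0387), and DESeq2 (adjusted p = 0.164) and 5 of the 6 fits without 1 library lost this call.

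**Figure D4:**
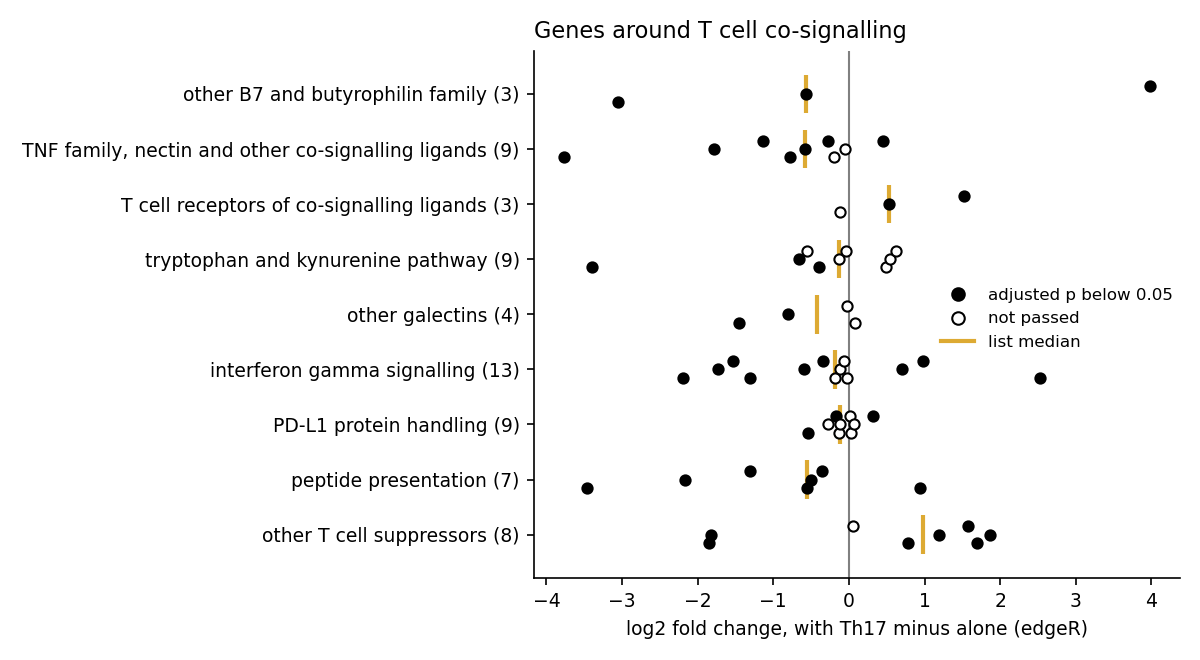
Log2 fold change (horizontal axis, with Th17 cells minus alone, edgeR over 3 libraries per group) of the 65 tested genes in 9 lists around T cell co-signalling, 1 point per gene, with the number tested in parentheses and a yellow bar at the list median. Filled points have an adjusted p below 0.05, and they lie on the negative side alone in the kynurenine and galectin lists, on the positive side alone in the T cell receptor list, and on both sides in the other lists.

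Several ligands are also made by white blood cells, so markers of the cells the cultures could hold were examined. Of 9 fibroblast markers, all tested, 7 were lower and 1 higher, where 20.0% of all genes tested were lower and 17.1% higher. The summed level of the 9 was 31668 to 33502 CPM alone and 15100 to 16841 CPM with Th17 cells. This sum was carried by the collagen genes Col1a1, at a mean of 15072 CPM alone and 6228 CPM with Th17 cells, and Col1a2, at 12462 and 4621 CPM. Dcn, the gene of decorin, rose from a mean of 504 CPM to 1427 CPM (edgeR adjusted p = 8.73e-08), and Postn did not pass (−0.04, edgeR adjusted p = 0.715). Of 14 myeloid and dendritic markers 6 were tested and 5 were lower, and the summed level of the 14 was 53.4 to 54.1 CPM alone and 12.9 to 16.6 CPM with Th17 cells. The macrophage marker Adgre1 had 71, 47 and 55 counts alone and 0 in each cocultured library. Ptprc, which all white blood cells express, had 14, 12 and 11 and then 0. The other lower markers were still present in every cocultured library. Lyz2 had 358, 337 and 337 counts alone and 49, 44 and 38 with Th17 cells. Cd68 had 106, 105 and 90 and then 58, 58 and 50, and Csf1r had 77, 81 and 65 and then 30, 19 and 19. The dendritic markers Itgax, Xcr1 and Cd209a were at 0 throughout. Zbtb46, also a dendritic marker, had 37, 70 and 65 counts alone and 77, 51 and 62 with Th17 cells and was the 1 tested gene of this list that did not pass (0.06, edgeR adjusted p = 0.884). The 5 lower markers thus moved in the same direction as Cd274, Lgals9 and Cd276, and their part in those differences was not tested. Cd86, a ligand of myeloid cells, was at 4 counts in all lone libraries together.

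Of 10 T cell markers, Cd3d, Cd2, Il17a and Il17f were at 0 counts in all libraries, with a summed level of 10 genes of 5.82 to 8.69 CPM alone and 4.79 to 5.58 CPM with Th17 cells. Most of this level came from the 2 tested, Lck, a kinase of the T cell receptor, with 49, 68 and 59 counts alone and 33, 34 and 23 with Th17 cells (−1.04, edgeR adjusted p = 0.00755), and Trac, with 20, 40 and 38 and then 41, 27 and 38 counts, which did not pass (edgeR adjusted p = 0.948). Of 5 B cell markers, Ms4a1 was at 0 and Pax5, with 205, 34 and 57 counts alone and 26, 20 and 12 with Th17 cells, was the 1 tested and was lower, with a summed level of 2.69 to 15.99 CPM alone and 0.913 to 2.08 CPM with Th17 cells. Kdr was the 1 lower gene of 2 endothelial markers tested of 5 (summed 6.79 to 7.52 and 1.60 to 2.75 CPM). Lrp2 was the only epithelial marker tested of 6, also lower (2.62 to 3.80 and 0.393 to 0.989 CPM). Over all genes tested, 20.0% were lower. Mitochondrial genes took 3.15% to 3.42% of counts alone and 4.13% to 4.55% with Th17 cells, and the part of this shift in the differences above was not tested.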

How the data were processed

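The comparison used 3 RNA libraries of renal fibroblasts alone and 3 of fibroblasts with Th17 cells, prepared with the VAHTS Universal kit and read on the NovaSeq instrument. According to the methods and the submitters' processing notes, reads were quality-filtered (Seqtk) and mapped by HISAT2 2.0.4 (build mm10), and the authors counted fragments per gene with StringTie 1.3.3b, and deposited raw counts and FPKM, the count scaled to gene length and library total. Strand use and the handling of shared fragments were not given in the sources used here. Groups came from the sample titles and columns from the sample descriptions. Of the gene identifiers, 34267 are in GENCODE M21 (GRCm38), and 99.9% of these overlap their position there.

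All genes were fitted in R 4.3.3 with edgeR 4.0.16 (filterByExpr with minimum count 10, TMM, glmQLFit, glmQLFTest, two-sided, Benjamini-Hochberg over 13088 genes). "Rose", "fell", "higher" and "lower" mean an adjusted p below 0.05. A second rule also required a fold change above 2, as the methods of the study do. SE is the log2 fold change divided by the square root of F. CPM uses TMM library sizes. The total count per library, 12050529 to 13209581, sets the precision of low genes. The code was tested on simulated data.

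The members, gene lists and markers were chosen with earlier results of these data known. Named are all members, genes of the lists (a few of which are not reported here), and the 3 nearest profiles per member (mean of at least 5 CPM). Alternatives were DESeq2 1.42.0, other scalings and filters, leaving out each library, a replicate block, and limma 3.58.1 on log2(FPKM + 1) of the deposited FPKM. Figures were drawn with matplotlib 3.10.9.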

Additional observations from a re-analysis of the deposited data

How the results depend on the processing

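Under the 14 alternative fits, Cd274, Lgals9 and Cd276 stayed lower and past the threshold and Icosl stayed below it. Their log2 fold changes were from −2.55 to −2.23 for Cd274, −1.42 to −1.29 for Lgals9, −0.91 to −0.73 for Cd276 and −0.53 to −0.14 for Icosl. Cd80 was higher in all 14 fits but lost its call in 9, with log2 fold changes of 0.49 with DESeq2, 0.49 without a filter on low counts, 0.49 with the replicate number as a block, and 0.40 to 0.56 when 1 library was left out. The number of higher members was then 0 in place of 1, also when a fold change above 2 was required. At an unadjusted p below 0.05 it was 1 in those edgeR fits except without lone replicate 1, and 0 with DESeq2. With a fold change above 2, the 9 lists had 7 higher and 15 lower genes in place of 14 and 29. In the other fits they had 12 to 15 higher and 27 to 30 lower. No sign of pairing by replicate number was seen, as deviations of same-numbered libraries from their group means correlated at 0.0157, −0.0256 and −0.00360. These values cannot show whether the libraries were paired when they were made. The block changed the calls of Cd80, Cd40, Stt3a, H2-Ab1 and Nt5e among the genes named. With library size only, the median of all genes moved by 0.0634. Depth limits Ido1, Cd86 and Pdcd1lg2, which had at most 7 counts in a library.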
